A study of Mus musculus with 6 samples.

Results

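Spiral ganglion neuron genes are described here in RNA-seq of the cochlea, the coiled hearing organ. The mice were at postnatal day 3, with Plscr5 knocked out or intact. The set has 33 genes, of 55769 features in the deposited tables. It was given as a list of symbols that mark neurons of the cochlea, and each symbol matched 1 Ensembl gene ID. All 33 passed the filter on low values, as did 17097 features in all. Plscr5 encodes a phospholipid scramblase, a membrane protein of a family named for moving lipids between the leaflets of a membrane. The tissue came from mice labelled Plscr5-/- (3 libraries) and from mice labelled wild type (3 libraries), with no strain, sex, pooling or part of the gene given for either. The extraction text names a Pou4f3(Δ/+) line that none of the libraries lists as its genotype, and the genotype field was used for both groups. Nothing in the labels says that each library came from a separate animal, so the p-values here reflect library-to-library spread alone, which may be technical.

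Spiral ganglion neurons are the bipolar primary neurons of hearing. Their peripheral processes contact hair cells and their central axons run in the auditory nerve to the brainstem. Type I neurons receive the output of inner hair cells and type II neurons contact outer hair cells. They signal with glutamate, and in the neonatal cochlea they are still refining their synapses, while Schwann cells myelinate their axons.

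The unit is TPM, in which reads are divided by transcript length and every library is brought to an equal sum, so sequencing depth is unknown and no counting interval can be given. Across tested genes, which do not replicate each other, Pearson r for any pair of libraries was at least 0.9635 and at most 0.9852. As a check of the labels, Plscr5 itself stood at 4.3, 3.69 and 5.01 TPM in the knockout libraries, against 14.5, 12.4 and 9.27 TPM in the wild-type libraries, with no overlap (log2 fold change -1.28, SE 0.18, limma adjusted p = 0.29, and -1.44 with adjusted p = 0.0889 without wild-type replicate 3). It is not at 0 in the knockout, and the labels do not say which exons were altered. Log2 fold changes are differences of knockout minus wild-type means of log2(TPM + 1), a scale that understates how far low genes change, from limma fitted to all tested features. Errors are SD over 3 libraries unless named otherwise.

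Most of the neuronal genes shared a pattern across the 6 libraries in which wild-type replicate 3 stood far below the rest. It was the lowest library for 29 of 33 genes, against 20.9% of all tested features, and for 26 genes it held under 50% of the mean of the other 5 libraries, against 4.77% of all tested features. The exceptions at this level were Syt2, Vamp1, Uchl1, Cplx2, Vamp2, Syt1 and Isl1. The genes on either side of that level were Pou4f1 at 48.96% and Syt2 at 53.2%. That this library is low in nerve genes was known when the list was drawn up, so these counts describe it and support nothing further. In bulk tissue, fewer cells of a type and less RNA per cell cannot be told apart.

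Among the other 5 libraries, many of the genes also shared which libraries were high or low. This crossed the genotypes and was shared in part by the glial markers below. The full order of the 5 differed between genes. Tubb3 and Snap25 were highest in knockout replicate 2, and Syp and Thy1 were higher in knockout replicate 3 than in wild-type replicate 2. Centred on each gene's mean over 6 libraries, the median over the 33 genes was 0.58, 0.44 and 0.13 in knockout replicates 1, 2 and 3 and -0.06, 0.26 and -1.41 in wild-type replicates 1, 2 and 3, on the log2(TPM + 1) scale. Knockout replicate 1 was highest for 22 of 33 genes, against 25.9% of all tested features. Knockout replicate 3 lay below wild-type replicate 2 for 25 of 33 genes, against 56.8% of all tested features. Wild-type replicate 1 was the lowest of these 5 libraries for 26 of 33 genes, against 22.5%. Replicate numbers mark no order within a genotype.

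**Figure D1:**
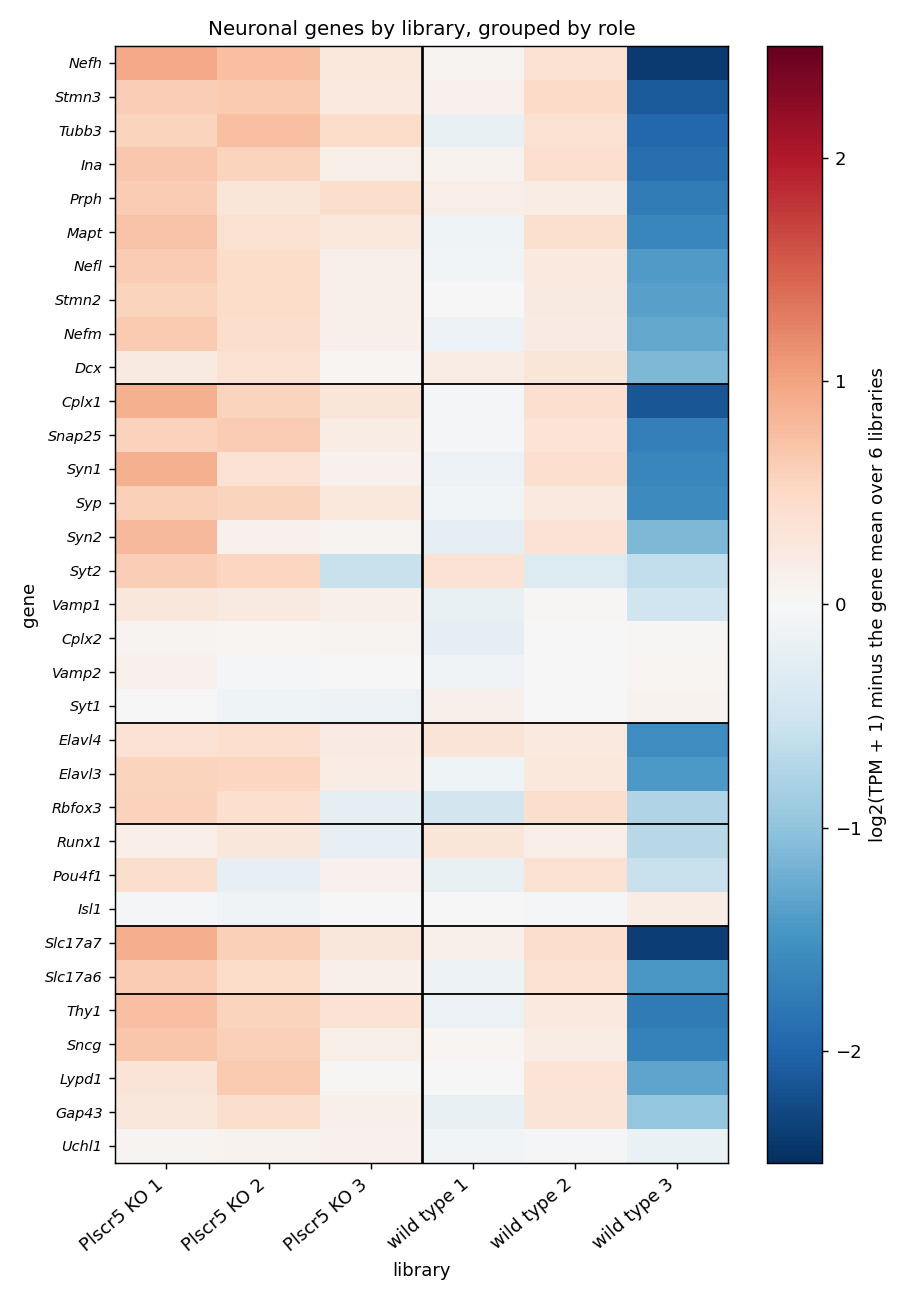
Heat map of the 33 neuronal genes (rows, grouped by role and sorted within a group by wild-type replicate 3) in the 3 Plscr5 knockout (left) and 3 wild-type (right) libraries. Colour is log2(TPM + 1) minus the gene's mean over the 6 libraries; wild-type replicate 3 is the lowest library for 29 of the 33 genes, and Isl1, Syt1, Vamp2 and Cplx2 are nearly flat.

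None of the 33 genes passed the genotype test. By limma with Benjamini-Hochberg adjustment over all tested features, 0 of 33 were called higher in the knockout, where 0% of tested features were, and 0 of 33 lower, where 0.0117% were. At an unadjusted p under 0.05, 2 of 33 were higher (Vamp1 and Uchl1), against 2.15% of tested features, and 0 of 33 lower, against 1.85%. The log2 fold change was positive for 31 of 33 genes, against 46.6% of tested features, with a median of 0.80 for the genes and -0.01 for all features. The range ran from -0.15 (Syt1) to 1.31 (Nefh). The median standard error was 0.46 for the genes and 0.14 for all features.

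Without wild-type replicate 3, the differences were smaller. The median log2 fold change was 0.27, over a range of -0.15 (Runx1) to 0.50 (Thy1, with Tubb3 at the same rounded value), and 29 of 33 were positive, against 47.1% of tested features. The median standard error was 0.17, against 0.14 over all features. Again 0 of 33 genes passed after adjustment in either direction, where 0.0119% of features were called higher and 0.00594% lower (limma adjusted p from 0.912 to 0.993 over the genes). At an unadjusted p under 0.05, 4 of 33 were higher (Tubb3, Syp, Vamp1 and Thy1), against 2.33% of tested features, and 0 lower, against 2.3%.

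Of the 33 genes, 7 had every knockout value above every wild-type value, against 4.6% of tested features, and 0 of 33 had every value below, against 4.74%. They were Tubb3, Prph, Syp, Vamp1, Cplx2, Uchl1 and Thy1. Without wild-type replicate 3, 7 of 33 did not overlap on the higher side, against 9.84% of features, and 0 on the lower side, against 9.25%. A two-sided exact permutation test of 3 libraries against 3 cannot go below p = 0.1, and each of the 7 genes gave that value.

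**Figure D2:**
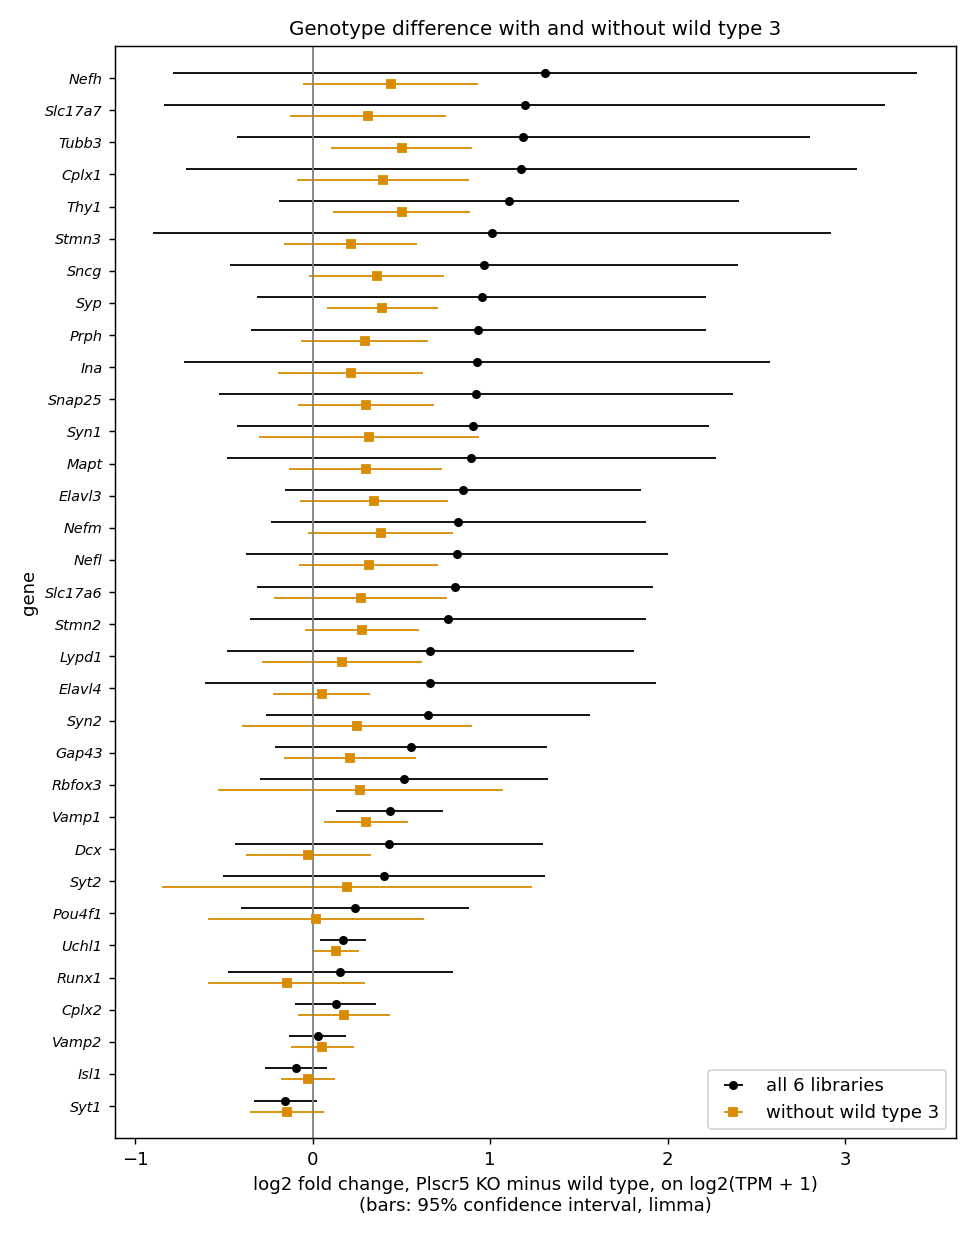
Log2 fold change of each neuronal gene, Plscr5 knockout minus wild type on log2(TPM + 1), with 95% confidence intervals from limma, from all 6 libraries (black circles) and without wild-type replicate 3 (orange squares). Nefh has the largest value with all libraries (1.31) and stands at 0.44 without that library, and Isl1 and Syt1 are negative in both.

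Genes of the axonal cytoskeleton were higher in the knockout in all 10 cases by log2 fold change, and 0 of them passed the test. Tubb3, the neuronal beta-tubulin, stood at 79.3, 90.1 and 73.9 TPM in the knockout libraries, against 46.6, 69.2 and 12.9 TPM in the wild-type libraries. Every knockout library lay above every wild-type library, and wild-type replicate 3 held 17.9% of the mean of the other 5. Knockout libraries averaged 81.1 ± 8.23 TPM and wild-type libraries 42.9 ± 28.4 TPM (n = 3 each). Its log2 fold change was 1.19 (SE 0.63, 95% confidence interval -0.43 to 2.80, limma adjusted p = 0.989). Without wild-type replicate 3 it was 0.50 (SE 0.17, 0.11 to 0.90, unadjusted p = 0.0200, limma adjusted p = 0.912).

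The neurofilament subunits assemble into the intermediate filaments that set axon calibre. Nefl, the light chain, stood at 164, 144 and 114 TPM in the knockout libraries, against 99.9, 125 and 38.9 TPM in the wild-type libraries. Nefm, the medium chain, stood at 232, 199.7 and 160.1 TPM in the knockout libraries, against 133, 168 and 59.4 TPM in the wild-type libraries, and Nefh, the heavy chain, at 73.95, 63.7 and 45.4 TPM in the knockout libraries, against 39.2, 48.96 and 6.33 TPM in the wild-type libraries. For all 3 chains, knockout replicate 3 lay below wild-type replicate 2, so the genotypes overlapped even when wild-type replicate 3 was set aside. The log2 fold change was 0.81 with all libraries and 0.32 without wild-type replicate 3 for Nefl, 0.82 with all libraries and 0.38 without wild-type replicate 3 for Nefm, and 1.31 with all libraries and 0.44 without wild-type replicate 3 for Nefh. The chains did not drop evenly in wild-type replicate 3. The ratio of Nefl to Nefm TPM was 0.705, 0.722 and 0.713 in the knockout libraries and 0.752, 0.742 and 0.654 in the wild-type libraries. The ratio of Nefh to Nefl TPM was 0.451, 0.442 and 0.398 in the knockout libraries and 0.393, 0.392 and 0.163 in the wild-type libraries. Nefh was thus low relative to the light chain in wild-type replicate 3, and the other 5 libraries lay between 0.392 and 0.451.

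Ina, alpha-internexin, a further neurofilament partner, stood at 50.05, 46.3 and 34.5 TPM in the knockout libraries, against 32.9, 41.8 and 7.68 TPM in the wild-type libraries, and held 18.7% of the mean of the other 5 libraries in wild-type replicate 3. Prph, peripherin, which marks type II spiral ganglion neurons in the mature mouse cochlea, stood at 8.88, 6.84 and 7.64 TPM in the knockout libraries, against 6.11, 6.18 and 0.88 TPM in the wild-type libraries. Its genotypes did not overlap, although knockout replicate 2 exceeded wild-type replicate 2 by little. The log2 fold change of Ina was 0.92 with all libraries and 0.21 without wild-type replicate 3, and that of Prph was 0.93 with all libraries and 0.29 without wild-type replicate 3. Mapt, which encodes the axonal microtubule-binding protein tau, stood at 41.8, 33.1 and 30.3 TPM in the knockout libraries, against 23.4, 33.6 and 7.42 TPM in the wild-type libraries, with log2 fold changes of 0.89 with all libraries and 0.30 without wild-type replicate 3. Dcx, doublecortin, a microtubule-binding protein of immature neurons, stood at 8.4, 9.49 and 7.3 TPM in the knockout libraries, against 8.16, 8.89 and 2.69 TPM in the wild-type libraries. Dcx was low in wild-type replicate 3 alone, and its log2 fold change was 0.43 with all libraries and -0.03 without wild-type replicate 3. The stathmins Stmn2 and Stmn3, tubulin-binding regulators of neurite growth, were each low in wild-type replicate 3, at 31.4% and 16.6% of the mean of the other 5 libraries. They had log2 fold changes of 0.76 with all libraries and 0.28 without wild-type replicate 3 (Stmn2) and 1.01 with all libraries and 0.21 without wild-type replicate 3 (Stmn3). The median over the 10 genes was 0.91 with all libraries and 0.29 without wild-type replicate 3, where 9 of 10 were higher and again 0 passed.

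Promoter sequence is given as a description. Most members varied together across libraries, as most glial markers did in wild-type replicate 3, and shared promoter control was not tested. RefSeq sequence of the 250 bases before the start of transcription (GRCm38.p6) was held for 24 of the 33. It was not used here for Gap43, Mapt, Nefh, Nefl, Nefm, Snap25, Stmn2, Thy1 and Vamp2. The core of RE1, the element bound by the repressor REST, which keeps neuronal genes silent outside neurons, was searched on both strands with up to 2 mismatches. A match lay in 3 of the 24 members (Syn1, Prph and Syt2), and in 1.71% of the 27025 genes with such a window. The E-box CAGATG, of a kind bound by neurogenic bHLH factors, was searched exactly on both strands, and was present in 5 of the 24 (Elavl4, Slc17a6, Sncg, Stmn3 and Syn2), against 16.3% of genes. A match is a run of letters and not a measured binding site. The windows given here are those of the 3 genes with the RE1 core, of Stmn3 as a strongly low member with an E-box, and of Isl1, the member least like the rest, 5′ to 3′ on the gene's strand, with matches in capitals. The window of Isl1 held neither run of letters.
Syn1 (chrX:20920919-20921168, minus strand): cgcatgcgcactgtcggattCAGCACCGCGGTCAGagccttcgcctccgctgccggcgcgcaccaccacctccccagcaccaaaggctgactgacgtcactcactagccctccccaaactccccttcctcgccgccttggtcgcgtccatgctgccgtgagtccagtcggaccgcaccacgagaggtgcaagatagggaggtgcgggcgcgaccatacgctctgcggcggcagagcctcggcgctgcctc
Prph (chr15:99054924-99055173, plus strand): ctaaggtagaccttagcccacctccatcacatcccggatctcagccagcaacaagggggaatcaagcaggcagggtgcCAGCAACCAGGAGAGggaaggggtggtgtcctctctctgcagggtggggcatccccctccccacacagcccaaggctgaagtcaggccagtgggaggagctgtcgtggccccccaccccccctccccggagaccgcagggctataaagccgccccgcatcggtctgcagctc
Syt2 (first of its windows, chr1:134646362-134646611, plus strand): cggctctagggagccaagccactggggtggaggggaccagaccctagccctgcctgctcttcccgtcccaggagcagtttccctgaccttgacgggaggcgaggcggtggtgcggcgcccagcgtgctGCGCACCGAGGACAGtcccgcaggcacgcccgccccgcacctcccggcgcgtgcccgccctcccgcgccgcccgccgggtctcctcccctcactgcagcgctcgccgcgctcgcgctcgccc
Stmn3 (chr2:181314501-181314750, minus strand): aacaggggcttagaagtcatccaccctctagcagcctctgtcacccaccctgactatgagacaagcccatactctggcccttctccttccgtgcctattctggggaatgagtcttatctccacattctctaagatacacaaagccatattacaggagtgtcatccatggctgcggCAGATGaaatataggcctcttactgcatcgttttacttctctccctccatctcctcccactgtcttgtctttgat
Isl1 (chr13:116309689-116309938, minus strand): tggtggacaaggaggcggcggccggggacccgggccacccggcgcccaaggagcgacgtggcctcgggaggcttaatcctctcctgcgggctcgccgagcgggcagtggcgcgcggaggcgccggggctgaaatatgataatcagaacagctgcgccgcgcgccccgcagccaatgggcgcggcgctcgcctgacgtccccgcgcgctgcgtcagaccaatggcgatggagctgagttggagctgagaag
The RE1 core began 230 bases before the start in Syn1, with 1 mismatch, and 172 bases before it in Prph and 122 bases before it in Syt2, with 2 mismatches each. These 3 genes did not share a pattern: wild-type replicate 3 held 19.1% of the mean of the other 5 libraries for Syn1, 12.3% for Prph and 53.2% for Syt2.

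Genes of the synaptic vesicle and its release machinery divided into steep, shallow and flat patterns. Among the steep ones, Snap25, a SNARE protein of the presynaptic membrane, stood at 72.7, 75.8 and 55.1 TPM in the knockout libraries, against 47.8, 61.8 and 14.3 TPM in the wild-type libraries. Syp, synaptophysin, an abundant vesicle membrane protein, stood at 70.3, 68.3 and 55.96 TPM in the knockout libraries, against 43.9, 54.6 and 14.6 TPM in the wild-type libraries. Cplx1, a complexin that binds the SNARE complex, stood at 159.8, 126 and 106 TPM in the knockout libraries, against 83.6, 114 and 18.5 TPM in the wild-type libraries. In each of these wild-type replicate 3 was far below every other library, and for Syp alone of the 3 the genotypes did not overlap. The log2 fold change of Cplx1 was 1.18 (95% confidence interval -0.72 to 3.07) with all libraries and 0.40 (-0.09 to 0.88) without wild-type replicate 3. That of Syp was 0.95 (-0.31 to 2.21) and 0.39 (0.08 to 0.71) in the same 2 fits, and that of Snap25 was 0.92 and 0.30. Syp had an unadjusted p of 0.0209 without wild-type replicate 3 and a limma adjusted p of 0.912.

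The synapsins tether vesicles in the reserve pool. Syn1 stood at 18.4, 12.4 and 10.3 TPM in the knockout libraries, against 8.4, 13.02 and 2.39 TPM in the wild-type libraries, and Syn2 at 9.75, 5.58 and 5.44 TPM in the knockout libraries, against 4.28, 6.93 and 1.83 TPM in the wild-type libraries. Both were highest in knockout replicate 1 and lowest in wild-type replicate 3, and wild-type replicate 2 lay above knockout replicates 2 and 3. Their log2 fold changes were 0.90 with all libraries and 0.32 without wild-type replicate 3 for Syn1 and 0.65 with all libraries and 0.25 without wild-type replicate 3 for Syn2.

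The vesicle SNAREs and the complexins each paired a gene low in wild-type replicate 3 with one that was not. Vamp1, synaptobrevin 1, stood at 61.2, 58.8 and 54.5 TPM in the knockout libraries, against 43.6, 50.7 and 35.2 TPM in the wild-type libraries, and Vamp2, synaptobrevin 2, at 189, 169 and 176 TPM in the knockout libraries, against 166, 177 and 181 TPM in the wild-type libraries. Vamp1 was higher in every knockout library, by a log2 fold change of 0.43 (SE 0.13, 95% confidence interval 0.13 to 0.74, unadjusted p = 0.0106, limma adjusted p = 0.989). Without wild-type replicate 3 it was 0.30 (0.06 to 0.53, unadjusted p = 0.0200, limma adjusted p = 0.912). It had the smallest unadjusted p of the 33 genes with all libraries, ranking 116 among tested features. Vamp2 overlapped fully between the genotypes, with log2 fold changes of 0.03 with all libraries and 0.05 without wild-type replicate 3. Cplx2, the second complexin, stood at 20.6, 20.3 and 20.5 TPM in the knockout libraries, against 16.6, 19.4 and 19.9 TPM in the wild-type libraries, and its log2 fold change was 0.13 (95% confidence interval -0.10 to 0.36) with all libraries and 0.18 without wild-type replicate 3. Wild-type replicate 1 was its lowest library, and all 3 knockout values lay above the wild-type ones by a small margin. The ratio of Cplx1 to Cplx2 TPM was 7.78, 6.23 and 5.19 in the knockout libraries and 5.03, 5.88 and 0.932 in the wild-type libraries.

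The synaptotagmins, calcium sensors of vesicle release, did not follow the steep pattern. Syt1 stood at 64.1, 59.1 and 57.5 TPM in the knockout libraries, against 69.6, 63.8 and 68.03 TPM in the wild-type libraries. Its genotypes overlapped, at knockout replicate 1 and wild-type replicate 2, and wild-type replicate 3 was among the higher libraries. Its log2 fold change was -0.15 (SE 0.08, 95% confidence interval -0.33 to 0.02) with all libraries and -0.14 (-0.35 to 0.06) without wild-type replicate 3. Syt2 stood at 16.3, 15.4 and 6.72 TPM in the knockout libraries, against 13.6, 7.87 and 6.37 TPM in the wild-type libraries. Knockout replicates 1 and 2 and wild-type replicate 1 were the high libraries, the other 3 were the low ones, and each genotype had both. Its log2 fold change was 0.40 (-0.51 to 1.31) with all libraries and 0.19 (-0.85 to 1.24) without wild-type replicate 3. Over the 10 genes of this group 9 were higher in both fits, with medians of 0.54 and 0.27, and 0 passed.

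**Figure D3:**
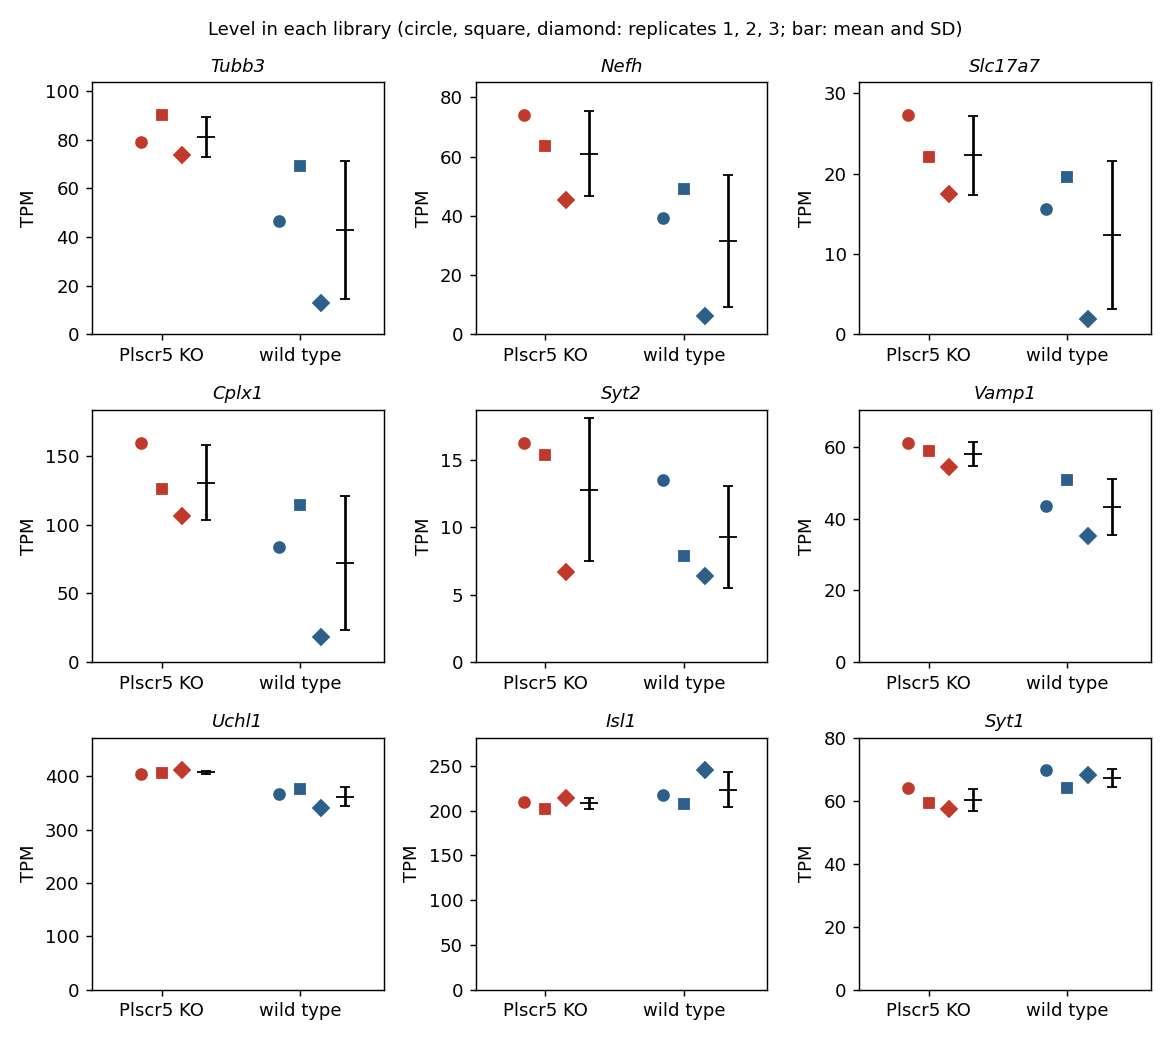
TPM of 9 neuronal genes in each library, Plscr5 knockout (red) left of wild type (blue), with replicates 1, 2 and 3 as circle, square and diamond and the mean and SD as a black bar. The wild-type diamond lies far below the other points for Tubb3, Nefh, Slc17a7 and Cplx1 (12.9, 6.33, 1.95 and 18.5 TPM) and not for Uchl1, Isl1 and Syt1.

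The vesicular glutamate transporters load the transmitter of these neurons into vesicles. Slc17a7, VGLUT1, stood at 27.3, 22.03 and 17.5 TPM in the knockout libraries, against 15.6, 19.6 and 1.95 TPM in the wild-type libraries. Slc17a6, VGLUT2, stood at 12.1, 10.6 and 8.19 TPM in the knockout libraries, against 6.8, 10 and 2.07 TPM in the wild-type libraries. Slc17a7 was the gene most reduced in wild-type replicate 3, to 9.56% of the mean of the other 5 libraries, and Slc17a6 stood at 21.7%. The ratio of Slc17a6 to Slc17a7 TPM was 0.445, 0.48 and 0.467 in the knockout libraries and 0.436, 0.51 and 1.06 in the wild-type libraries. VGLUT2 exceeded VGLUT1 in wild-type replicate 3 alone, and there by little (2.07 against 1.95 TPM). Both values are low and the depth is unknown, so which of the 2 was higher there is uncertain. The log2 fold change of Slc17a7 was 1.19 (95% confidence interval -0.84 to 3.23) with all libraries and 0.31 (-0.13 to 0.75) without wild-type replicate 3, and that of Slc17a6 was 0.80 and 0.27.

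The neuronal RNA-binding proteins Elavl3 and Elavl4 stabilise neuronal transcripts, and Rbfox3, known as NeuN, regulates splicing. Elavl3 stood at 10.9, 10.8 and 8.2 TPM in the knockout libraries, against 6.58, 8.71 and 2.02 TPM in the wild-type libraries. Elavl4 stood at 17.2, 18.1 and 15.5 TPM in the knockout libraries, against 16.8, 15.8 and 3.83 TPM in the wild-type libraries, and its 5 libraries other than wild-type replicate 3 lay within a narrow range that mixed the genotypes. Rbfox3 stood at 16.6, 14.8 and 9.1 TPM in the knockout libraries, against 7.63, 14.96 and 6.03 TPM in the wild-type libraries, with knockout replicate 3 and wild-type replicate 1 low as well. The log2 fold changes were 0.85 with all libraries and 0.35 without wild-type replicate 3 for Elavl3, 0.66 with all libraries and 0.05 without wild-type replicate 3 for Elavl4 and 0.51 with all libraries and 0.27 without wild-type replicate 3 for Rbfox3.

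The 3 transcription factors did not behave as 1 group. Isl1, a LIM homeodomain factor of sensory neurons that the developing cochlear sensory epithelium also uses, stood at 210.2, 201 and 214 TPM in the knockout libraries, against 218, 207 and 245 TPM in the wild-type libraries. It was the 1 member of the list highest in wild-type replicate 3, and its log2 fold change was -0.10 (95% confidence interval -0.27 to 0.08) with all libraries and -0.03 without wild-type replicate 3. Pou4f1, the POU homeodomain factor Brn3a, which marks a subset of type I neurons in the mature mouse, stood at 4.04, 2.21 and 2.99 TPM in the knockout libraries, against 2.25, 3.83 and 1.5 TPM in the wild-type libraries. Runx1, a Runt-domain factor of type I subtypes and also of blood cell development, stood at 4.94, 5.39 and 3.57 TPM in the knockout libraries, against 5.48, 4.89 and 2.29 TPM in the wild-type libraries. Both were lowest in wild-type replicate 3, and otherwise the genotypes overlapped. Their log2 fold changes were 0.24 with all libraries and 0.02 without wild-type replicate 3 for Pou4f1 and 0.16 with all libraries and -0.15 without wild-type replicate 3 for Runx1.

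Of the membrane and growth cone genes, Thy1, a surface glycoprotein of neurons, stood at 23.9, 20.7 and 17.9 TPM in the knockout libraries, against 12.4, 16.5 and 3.37 TPM in the wild-type libraries. Its genotypes did not overlap, and the log2 fold change was 1.10 (95% confidence interval -0.19 to 2.40) with all libraries and 0.50 (0.12 to 0.89, unadjusted p = 0.0174, limma adjusted p = 0.912) without wild-type replicate 3. Thy1 and Tubb3 had the largest values in the second fit. Uchl1, a neuronal deubiquitinase, was the most abundant of the 33 genes by mean TPM over all libraries and stood at 405, 405 and 411 TPM in the knockout libraries, against 367, 377 and 341 TPM in the wild-type libraries. Its knockout values lay close together, all above the wild-type values. Knockout libraries averaged 407 ± 3.29 TPM and wild-type libraries 362 ± 18.4 TPM (n = 3 each), with a log2 fold change of 0.17 (SE 0.06, 95% confidence interval 0.04 to 0.30, unadjusted p = 0.0178, limma adjusted p = 0.989). Without wild-type replicate 3 it was 0.13 (0.00 to 0.26, limma adjusted p = 0.912).

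Sncg, gamma-synuclein, stood at 164, 152 and 111 TPM in the knockout libraries, against 104, 115 and 30.2 TPM in the wild-type libraries, and Gap43, a growth cone protein, at 55.3, 61.2 and 49.1 TPM in the knockout libraries, against 39.8, 56.5 and 22.6 TPM in the wild-type libraries. Lypd1, a Ly6 family protein that marks a type I subtype in the mature mouse, stood at 42.01, 52.9 and 34.1 TPM in the knockout libraries, against 33.05, 42.7 and 12.7 TPM in the wild-type libraries. For all 3, knockout replicate 3 lay below wild-type replicate 2. The ratio of Lypd1 to Tubb3 TPM was 0.53, 0.587 and 0.461 in the knockout libraries and 0.709, 0.618 and 0.991 in the wild-type libraries. That of Pou4f1 to Tubb3 was 0.051, 0.0245 and 0.0404 in the knockout libraries and 0.0482, 0.0553 and 0.117 in the wild-type libraries. Both ratios were highest in wild-type replicate 3, where Tubb3 held 17.9% of the mean of the other 5 libraries. Lypd1 held 31.1% and Pou4f1, at 1.5 TPM, 48.96%, against a median of 28.6% over the 33 genes. Most of the 33 genes were less reduced there than Tubb3, so these ratios do not set the subtype genes apart. The log2 fold changes were 0.97 with all libraries and 0.36 without wild-type replicate 3 for Sncg, 0.56 with all libraries and 0.21 without wild-type replicate 3 for Gap43 and 0.66 with all libraries and 0.17 without wild-type replicate 3 for Lypd1.

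Further neuronal genes outside the list showed the same low library to a smaller extent, and unevenly between groups. Of 83 such genes in 5 groups, 77 were tested, 63 were higher and 14 lower with all libraries (median log2 fold change 0.35), and 58 were higher and 19 lower without wild-type replicate 3 (median 0.16). By limma 0 passed in either fit. Wild-type replicate 3 was lowest for 59 of the 77 and held under 50% of the mean of the other 5 libraries for 31. It held under 50% for 14 of 20 pan-neuronal genes, 6 of 17 cytoskeletal, 7 of 21 release and 3 of 8 RNA-binding genes. Among tested genes of spiral ganglion identity and subtype it did so for 1 of 11 (9.09%, against 4.77% of all tested features). It was the lowest library for 6 of those 11 and for 3 of the 8 RNA-binding genes, against 20.9% of all tested features.

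By group, further cytoskeletal and axonal transport genes were higher in 17 of 17 with all libraries and in 13 of 17 without wild-type replicate 3, with medians of 0.31 and 0.15. The 4 with the smallest p were tubulins: Tubb4a (log2 fold change 0.42 and 0.37 in the 2 fits), Tubb2a (0.45 and 0.30), Tuba1a (0.23 and 0.19) and Tubb2b (0.24 and 0.19). Tubb2a and Tubb2b are near-identical copies between which reads may be shared, so their separate values are uncertain. Further release genes were higher in 19 of 21 and in 18 of 21 (medians 0.34 and 0.16), among them Dnm1, a dynamin of vesicle retrieval (0.44 and 0.33), Sv2a, a vesicle glycoprotein (0.61 and 0.30), and Nsf, which takes SNARE complexes apart (0.32 and 0.17). Further RNA-binding genes were higher in 6 of 8 and in 4 of 8 (medians 0.16 and 0.02), with values of 0.21 and 0.19 for Celf4 and 0.44 and -0.05 for Rbfox1. None of these genes passed.

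Pan-neuronal membrane and secretory genes were higher in 16 of 20 in both fits (medians 0.59 and 0.22). Nsg1, a neuronal endosome protein, stood at 61.9, 61.6 and 68.1 TPM in the knockout libraries, against 46.95, 51.6 and 30.9 TPM in the wild-type libraries, with no overlap. Nrcam, a cell adhesion molecule, was lower in every knockout library and stood at 47.98, 44.8 and 45.6 TPM in the knockout libraries, against 60.9, 54.6 and 60.5 TPM in the wild-type libraries. Its log2 fold change was -0.34 (95% confidence interval -0.52 to -0.16, limma adjusted p = 0.989) with all libraries and -0.32 without wild-type replicate 3. That of Nsg1 was 0.59 (0.17 to 1.00, limma adjusted p = 0.989) with all libraries and 0.37 without wild-type replicate 3. Of 17 genes of spiral ganglion identity and subtype 11 were tested, with 5 higher and 6 lower (median -0.04) with all libraries and 7 higher and 4 lower (median 0.10) without wild-type replicate 3. Calb1, the calcium buffer calbindin, stood at 193, 205 and 188 TPM in the knockout libraries, against 252, 223 and 228 TPM in the wild-type libraries, all knockout values below the wild-type values (log2 fold change -0.26, -0.43 to -0.10, limma adjusted p = 0.989, and -0.28 without wild-type replicate 3). For Nrcam and Calb1, wild-type replicate 3 held 119.1% and 107.5% of the mean of the other 5 libraries. The median over the 33 neuronal genes was 28.6%. Which cells of the tissue gave the RNA of Nrcam and Calb1 was not tested. Plk5 and Ngfr came next after Calb1 by smallest p in the identity and subtype list. They had log2 fold changes of 0.47 and 0.40 with all libraries and 0.31 and 0.16 without wild-type replicate 3.

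Broadly expressed paralogs of the neuronal genes were nearer the level of the other libraries in wild-type replicate 3, though often lowest there. Over 11 of them, such as the beta-tubulin gene Tubb5, the stathmin gene Stmn1 and the intermediate filament genes Lmna and Vim, that library held a median of 89.4% of the mean of the other 5 (range 66.5% to 108.8%), against a median of 28.6% over the 33 neuronal genes. It was the lowest library for 7 of the 11, against 20.9% of all tested features. The median log2 fold change of the paralogs was 0.02 with all libraries and 0.04 without wild-type replicate 3. Tubb5 stood at 438, 456 and 444 TPM in the knockout libraries, against 359, 419 and 349.8 TPM in the wild-type libraries, with no overlap (log2 fold change 0.25, limma adjusted p = 0.989, and 0.20 without wild-type replicate 3), and Stmn1 at 363, 346 and 309 TPM in the knockout libraries, against 316, 327 and 221 TPM in the wild-type libraries. Wild-type replicates 1 and 3 were the lowest libraries for Tubb5, as for Tubb3.

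**Figure D4:**
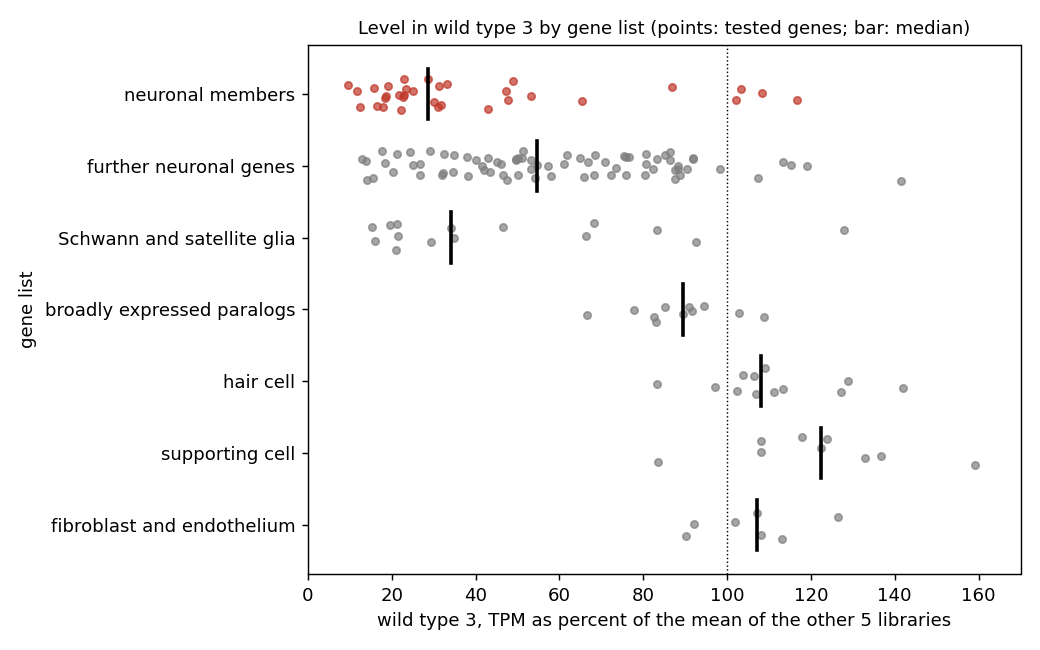
TPM in wild-type replicate 3 as a percentage of the mean of the other 5 libraries, for each tested gene (points) of 7 gene lists, with the list median as a bar and the dotted line at 100%. The medians are 28.6% for the 33 neuronal genes (red), 54.7% for further neuronal genes, 34.1% for Schwann and satellite glia, 89.4% for broadly expressed paralogs, 108% for hair cells, 122% for supporting cells and 107% for fibroblasts and endothelium.

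Among the markers of other cell types, most of those of the glia were also low in wild-type replicate 3. The 15 Schwann and satellite glia genes had a summed level of 1996 to 2915 TPM over the knockout libraries, against 921 to 2046 TPM over the wild-type ones, with none at 0, and 13 of 15 were lowest in wild-type replicate 3. With all libraries 14 of the 15 were higher (median 0.69 by log2 fold change), and without wild-type replicate 3 11 were higher with a median of 0.26, and 0 passed in either fit. Gldn, Mag, Pmp22 and Egr2 had the smallest p of this list. Their log2 fold changes were 0.51, 0.95, 0.75 and 0.85 with all libraries. They were 0.28, 0.42, 0.31 and 0.26 without wild-type replicate 3. Over the 15 genes the range was -0.01 (Sox10) to 1.18 with all libraries and -0.05 (Sox10) to 0.46 without that library. Wild-type replicate 3 held under 50% of the mean of the other 5 libraries for 10 of the 15. It held 92.5% for Sox10 and 83.3% for Erbb3. Knockout replicate 1 was the highest library for 14 of the 15, against 25.9% of all tested features. Wild-type replicate 1 was the lowest of the 5 libraries other than wild-type replicate 3 for 8 of the 15, against 22.5%. The part of the glia, or of how much nerve tissue each sample held, in the neuronal values was not tested.

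Hair cell, supporting cell and fibroblast markers were not low in wild-type replicate 3. The 12 hair cell genes had a summed level of 445 to 491 TPM over the knockout libraries, against 479 to 532 TPM over the wild-type ones, with wild-type replicate 3 the highest library and 1 of 12 lowest there. The 9 supporting cell genes had a summed level of 5198 to 5372 TPM over the knockout libraries, against 5703 to 6690 TPM over the wild-type ones, with none lowest in wild-type replicate 3. With all libraries, 9 of the 12 hair cell genes and 9 of the 9 supporting cell genes were lower in the knockout (median log2 fold changes -0.12 and -0.17). Without wild-type replicate 3, 7 of the 12 and 7 of the 9 were lower (medians -0.06 and -0.05). By limma 0 passed in either fit. Of all tested features, 46.6% were higher with all libraries and 47.1% without that library. The 7 fibroblast and endothelial genes had a summed level of 928 to 969 TPM over the knockout libraries, against 887 to 975 TPM over the wild-type ones. In both fits 6 of these 7 were higher (medians 0.04 and 0.08). The 7 macrophage and blood genes had a summed level of 259 to 803 TPM over the knockout libraries, against 512 to 592 TPM over the wild-type ones.

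Some markers of other neurons were listed at 0 and others were not. Of 13 central nervous system genes, 6 passed the filter on low values. Slc32a1, Slc6a5 and Neurod6 were listed at 0 in every library. The list had a summed level of 46.6 to 51.9 TPM over the knockout libraries, against 45.2 to 55.8 TPM over the wild-type ones. Gad1, the enzyme that makes the transmitter GABA, was the main contributor, at 31.1, 21.7 and 25.96 TPM in the knockout libraries, against 25.1, 25.4 and 32.8 TPM in the wild-type libraries. Of 8 genes of geniculate, autonomic, motor and vestibular ganglion neurons, Chat, Slc18a3 and Mnx1 were listed at 0 in every library, and the list had a summed level of 1.25 to 2.23 TPM over the knockout libraries, against 0.94 to 1.49 TPM over the wild-type ones. The 1 tested gene of that list, Th, the catecholamine enzyme tyrosine hydroxylase, which type II spiral ganglion neurons of the mature mouse also express, stood at 1.66, 1.68 and 1.12 TPM in the knockout libraries, against 0.96, 0.99 and 0.50 TPM in the wild-type libraries. It was lowest in wild-type replicate 3, at 39.0% of the mean of the other 5 libraries, and its genotypes did not overlap. Its log2 fold change was 0.46 (limma adjusted p = 0.989) with all libraries and 0.32 without wild-type replicate 3. The part of such neurons in the neuronal values was not tested. The 6 skeletal muscle genes had a summed level of 3.56 to 7.14 TPM over the knockout libraries, against 3.96 to 7.54 TPM over the wild-type ones.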

How the data were processed

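The deposited values are TPM per gene in 6 libraries, 3 Plscr5 knockout and 3 wild type, grouped by genotype and summing to about 1000000 per library. The unit was read from the values. DESeq2 and a genome build, mm8, appear without a role in the submitters' processing notes. Which aligner, quantifier and annotation made the values is not given in the sources used here. Symbols came from GENCODE M21, which named 52083 of 55769 features, and promoter windows came from RefSeq on GRCm38.p6, a build other than mm8, so their coordinates refer to GRCm38.p6 alone. A feature was kept when 3 or more libraries reached 1 TPM. Values were transformed to log2(TPM + 1) and fitted with limma 3.58.1 in R 4.3.3 (trend and robust moderation), with Benjamini-Hochberg adjustment and a threshold of 0.05. The fit was tested on simulated data. Each fit was repeated under the alternatives given below. The members and lists were chosen with earlier results of these data known. Named were all 33 members, Plscr5 and up to 4 genes with the smallest p of each further list. Also named were Slc32a1, Slc6a5, Neurod6, Gad1, Chat, Slc18a3 and Mnx1, for levels at or near 0 or for a large share of a sum. Scg2, Ncmap, Sox10 and Erbb3 were chosen after their values were seen. These exceptions and Th were not among the genes checked under each alternative. Some genes of the further lists are not reported here. TPM keeps no read depth, so no interval for counting error is given.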

Additional observations from a re-analysis of the deposited data

How the results depend on the processing

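The count of neuronal genes called was 0 in both directions under every alternative run: a pseudocount of 0.1, no filter on low values, median-of-ratios scaling, quantile normalization, limma without trend or robust moderation, the replicate block and each library left out. Over all features, the count called lower (2 as reported) was 0 with no filter, 0 without trend or robust moderation, 0 with the replicate block and 1 with median-of-ratios scaling, and from 0 to 2 with a library left out. The count called higher (0 as reported) was from 0 to 2 with a library left out. The deviations of same-numbered libraries from their genotype means correlated at 0.188, -0.0546 and 0.242 for replicates 1, 2 and 3. The best-matching wild-type library was replicate 1 for knockout replicate 1 and replicate 3 for knockout replicates 2 and 3. With 3 libraries per genotype, whose deviations sum to 0, this check cannot decide whether the replicate number pairs the samples. The main fit did not pair them. The median log2 fold change of the 33 genes was 0.80 to 0.82 under the scaling and pseudocount settings and from 0.27 (without wild-type replicate 3) to 1.13 (without wild-type replicate 2) with a library left out. Of 840 checks on named genes 835 kept their direction and call and 5 changed sign, all when 1 library was left out and none of them called. With each library left out in turn the log2 fold change of Vamp2 ranged from -0.016 (knockout replicate 1 left out; with wild-type replicate 1 left out it was -0.011) to 0.062. The lowest value came with wild-type replicate 3 left out for the other 3 genes, and the ranges were -0.025 to 0.69 for Dcx, -0.15 to 0.34 for Runx1 and -0.051 to 0.81 for Rbfox1. The cause was not tested. TPM keeps no depth, so what depth limits is unknown, and the 3 libraries per genotype set the precision.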

Other observations

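A few neuronal and glial genes varied between libraries without following genotype, or differed from their list in wild-type replicate 3. They were picked after their values were seen. Scg2, a granin of dense-core vesicles, stood at 13.9, 2.4 and 4.5 TPM in the knockout libraries, against 19.1, 12.6 and 1.36 TPM in the wild-type libraries, so that wild-type replicate 3 was lowest and knockout replicates 2 and 3 came next. Celf3, a neuronal RNA-binding protein, stood at 8.86, 8.74 and 3.03 TPM in the knockout libraries, against 3.84, 8.55 and 3.13 TPM in the wild-type libraries, with the same 3 high libraries as Rbfox3 (knockout replicates 1 and 2 and wild-type replicate 2). Ncmap, a myelin membrane protein, stood at 24.4, 34.4 and 29.4 TPM in the knockout libraries, against 18.6, 23.2 and 33.3 TPM in the wild-type libraries, and was the 1 glial marker of 15 above the mean of the other 5 libraries in wild-type replicate 3. None of these was called, and no cause was tested.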
